A study of Mus musculus with 6 samples.

Results

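Oocyte and cleavage-stage transcripts were followed in mouse blastocysts, the stage at which the embryo forms a fluid-filled cavity before it implants. The set was given as a list of 37 genes known from oocytes and from the first cell divisions, matched by gene symbol. It was chosen with earlier results of these data known. Of these, 35 genes had at least 1 feature on the array and 2 (Oog1 and Zscan4d) had none under their symbol or gene identifier, out of 22485 genes with a feature in all. After the dimmest features were left out, 23 of the 35 were among the 17399 genes tested.

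All embryos were B6C3F1 hybrids on day 5, flushed from the oviduct on the second day of pregnancy of superovulated females aged 6 to 8 weeks, and then cultured for 72 hours. In 3 samples the medium held 400 nM of a mir-30d mimic, a synthetic RNA that acts like the microRNA miR-30d, and in 3 samples it held 400 nM of a scrambled RNA with the dye Alexa 488. Each condition used 30 pooled embryos, total RNA was labelled with Cy3, and each sample was hybridised to its own 1-colour array. Every embryo compared here received an oligonucleotide and the dye is named for the control alone, so effects of the dye cannot be told apart from those of the mimic. The samples are called biological replicates, and nothing says whether the cultures came from separate matings, so each p-value covers just the spread among these samples, which may be technical.

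A growing oocyte stores messenger RNAs for its coat, its meiotic arrest and the first divisions, and most of this store is degraded around the maternal-to-embryonic transition. In the mouse the embryo's own genome becomes active at the 2-cell stage, with a short burst of genes such as Zscan4, Tcstv, Tdpoz, Zfp352 and Obox, most of which are silenced again before the blastocyst forms. A transcript of either class that is still read in a blastocyst may be left over from the oocyte or made anew, and an array of whole embryos cannot tell these apart, nor fewer cells of a type from less RNA per cell.

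The start regions of 4 genes are shown because they carry the contrast described below. Tcl1 and Zfp352 had the highest mean signals of the set, while Zp3 and Zscan4c stand for the oocyte and the 2-cell genes at the dim end of the arrays. The windows run from 250 bases before to 50 bases after the gene start and are from RefSeq on build GRCm38.p6, in which 26 of the 37 genes had a window. They lie at chr12:105222688-105222987 (minus strand) for Tcl1, chr4:90218570-90218869 (plus strand) for Zfp352, chr5:135979855-135980154 (plus strand) for Zp3 and chr7:11005495-11005794 (plus strand) for Zscan4c, each 5′ to 3′. Capitals mark E-boxes (CANNTG), the element bound by the oocyte factor Figla with its partner, and TAATCC in either orientation, the core bound by bicoid-class homeodomains of Drosophila.
Tcl1: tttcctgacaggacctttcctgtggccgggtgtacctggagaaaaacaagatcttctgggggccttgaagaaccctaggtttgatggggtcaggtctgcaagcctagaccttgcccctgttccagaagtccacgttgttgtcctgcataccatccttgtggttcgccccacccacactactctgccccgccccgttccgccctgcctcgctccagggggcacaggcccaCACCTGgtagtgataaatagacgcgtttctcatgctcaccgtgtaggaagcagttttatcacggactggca
Zfp352: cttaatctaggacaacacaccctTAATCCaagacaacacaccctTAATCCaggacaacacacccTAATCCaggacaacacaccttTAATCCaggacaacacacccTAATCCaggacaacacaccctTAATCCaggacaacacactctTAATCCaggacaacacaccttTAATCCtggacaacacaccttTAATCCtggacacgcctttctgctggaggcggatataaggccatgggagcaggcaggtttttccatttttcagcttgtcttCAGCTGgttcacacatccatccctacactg
Zp3: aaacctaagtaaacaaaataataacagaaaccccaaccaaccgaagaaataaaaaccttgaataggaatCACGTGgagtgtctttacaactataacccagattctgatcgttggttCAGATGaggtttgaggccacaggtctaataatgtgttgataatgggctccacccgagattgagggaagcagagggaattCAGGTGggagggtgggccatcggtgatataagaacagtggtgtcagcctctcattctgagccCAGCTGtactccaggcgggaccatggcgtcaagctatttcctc
Zscan4c: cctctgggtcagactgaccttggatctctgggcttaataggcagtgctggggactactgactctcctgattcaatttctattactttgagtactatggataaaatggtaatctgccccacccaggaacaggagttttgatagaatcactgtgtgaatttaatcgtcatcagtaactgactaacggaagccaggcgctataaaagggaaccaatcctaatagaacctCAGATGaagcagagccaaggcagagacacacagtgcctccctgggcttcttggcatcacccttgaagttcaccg

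The Zp3 window held 4 E-boxes and the other windows held 1 each. Of the 26 members with a window 22 (84.6%) held an E-box in the first window listed for the gene. Over all 32851 promoter windows, with every listed window of a gene counted, the share was 72.3%. The Zfp352 window is a tandem array of a short unit and held TAATCC 9 times, whereas the other printed windows held it 0 times. TAATCC was present in 7.06% of all windows and in 3 of the 26 first windows of members. Of all 32851 windows only that of Zfp352 held it 9 times or more. This motif was searched after the window had been read, and a match describes letters in a window and not a site in use.

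The arrays read the blastocyst as such. Of 12 blastocyst markers 10 were well above the dim end, among them Cdx2 of the trophectoderm (log2 signal 12.14 to 13.73), the keratin gene Krt8 (14.48 to 15.12), the pluripotency factor Nanog (10.07 to 10.77) and the primitive endoderm factor Gata4 (9.84 to 10.48). The markers that did not meet this on all 6 arrays were 2 other pluripotency factors, Pou5f1 (8.82 to 10.17) and Sox2 (7.24 to 8.53). The sperm genes Prm1 and Prm2 (6.69 to 7.60), the cumulus cell genes Has2 and Fshr (6.71 to 8.05) and the oviduct gene Ovgp1 (6.80 to 7.41) were close to the dim end on the mean. The highest of these values was that of Fshr in mimic replicate 1. Of the lists of these other cell types, 0 of 7 sperm, 1 of 8 cumulus (Foxl2, 12.17 to 13.41) and 1 of 5 oviduct markers (Krt7, 10.39 to 11.12) were well above it. On the mean, 7 of 7 sperm, 6 of 8 cumulus and 3 of 5 oviduct markers lay within 0.5 log2 units of it. Sox2, Foxl2 and Krt7 were singled out after their values were seen. Whether the Foxl2 and Krt7 signals came from cumulus or oviduct cells or from the embryos was not tested. The 2 replicate 1 arrays stood apart from the others, with mean correlations to the other arrays of 0.913 (scramble) and 0.938 (mimic) against 0.958 to 0.963, and results are therefore also given without them.

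Almost the entire set lay at the dim end. No detection flags were used, so level was judged against the 25th percentile of the named features on each array, which was 7.12 to 7.15 in log2 signal. A gene was called well above the dim end when it exceeded this percentile by at least 2 log2 units, which is 4-fold, on all 6 arrays. Of the 35 genes 1 met this (2.86%), namely Tcl1, against 21.2% of all 22485 genes. By the mean over the arrays 4 genes (11.4%) lay at least 1 log2 unit above, which were Tcl1, Zfp352, Gpr3 and Nlrp4f, against 35.7% of all genes. The mean of 30 members (85.7%) was within 0.5 log2 units of the percentile, where 55.3% of all genes lay, and the mean of 11 was below it. No gene of the set reached 3 log2 units above on all arrays.

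**Figure D1:**
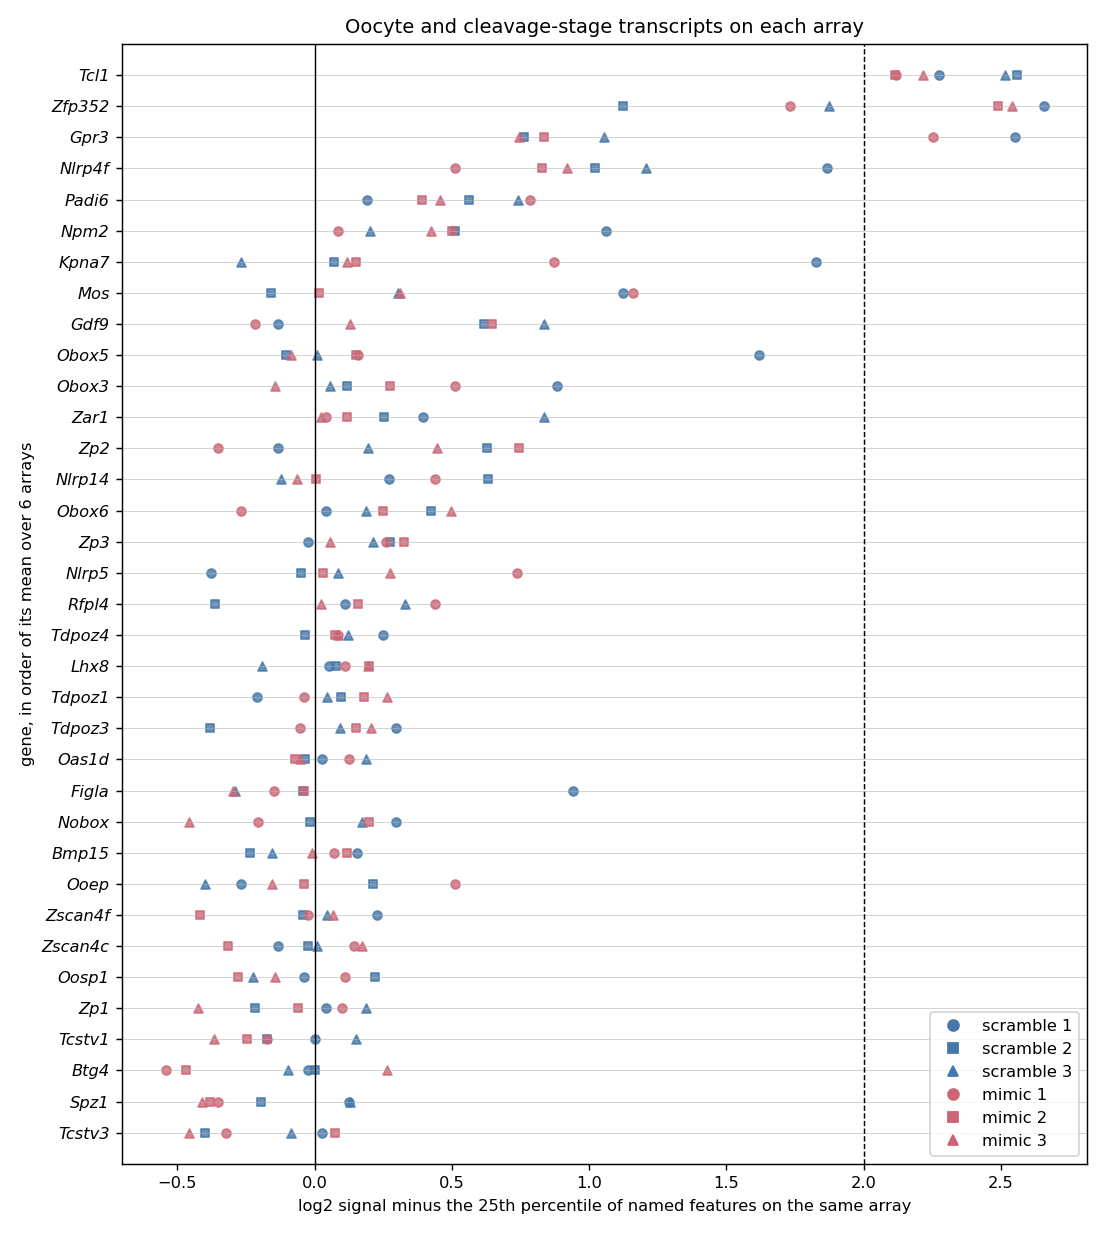
Log2 signal of each of the 35 genes on each of the 6 arrays, as the distance from the 25th percentile of the named features on the same array (solid line at 0, dashed line at 2). Genes are placed in order of their mean for display only. Tcl1 alone has all 6 points beyond the dashed line, and most genes scatter around 0.

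**Figure D2:**
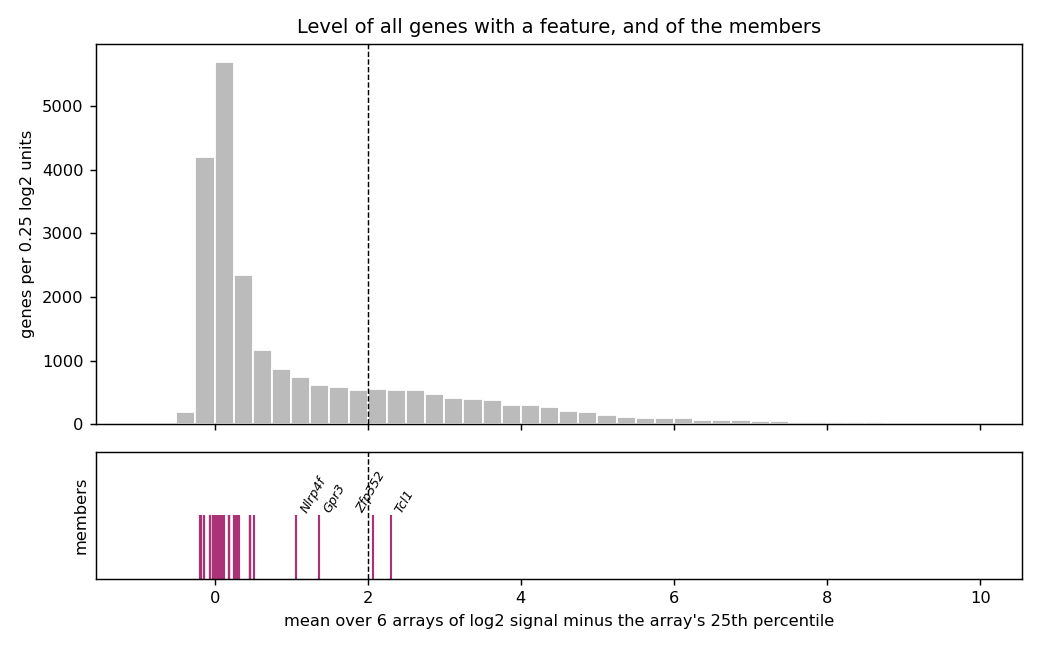
Distribution of the mean level of all 22485 genes with a feature (grey bars, number of genes per 0.25 log2 units) and of the 35 members (vertical lines), both as the distance from the 25th percentile in log2 units. The members sit under the peak of dim genes except Tcl1, Zfp352, Gpr3 and Nlrp4f.

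Tcl1, a coactivator of the kinase Akt that is known from oocytes, early embryos and embryonic stem cells, was the member that lay well above the dim end on all arrays. Its log2 signal was 9.39, 9.70 and 9.65 in scramble replicates 1 to 3 and 9.25, 9.26 and 9.36 in the mimic. All 3 mimic arrays were below all 3 scramble arrays, by a narrow margin. The scramble mean was 9.58 ± 0.17 and the mimic mean 9.29 ± 0.06 (each SD, n = 3). The mimic minus scramble difference was therefore -0.29 in log2 (SE 0.17, 95% interval -0.68 to 0.10). It did not pass in limma (adjusted p = 0.972). Without the replicate 1 arrays the difference was -0.36 (SE 0.14).

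Zfp352, a zinc finger gene of the 2-cell burst, was read at 9.77, 8.26 and 9.01 with scramble and at 8.86, 9.64 and 9.69 with the mimic. The groups overlapped, and the replicate 1 arrays ran against the others, highest within the scramble group and lowest within the mimic group. The log2 difference of 0.38 (SE 0.39, 95% interval -0.51 to 1.27) did not pass in limma (adjusted p = 0.972). Without both replicate 1 arrays it was 1.02 (SE 0.23), and it still did not pass (limma adjusted p = 0.626). It was 0.76 without scramble replicate 1, 0.64 without mimic replicate 1, 0.23 without mimic replicate 3 and close to nil (0.0018) without scramble replicate 2.

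Nlrp4f, one of the NLR family genes transcribed in mouse oocytes, had log2 signals of 8.99, 8.16 and 8.35 with scramble and 7.64, 7.97 and 8.07 with the mimic. The groups did not overlap, and the distance between the lowest scramble and the highest mimic array was small. The log2 difference was -0.60 (SE 0.32, 95% interval -1.34 to 0.13) and did not pass (limma adjusted p = 0.972). Leaving out scramble replicate 1 gave -0.36, and leaving out both replicate 1 arrays together gave -0.23.

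Gpr3, the constitutively active receptor that keeps cyclic AMP high and so holds the oocyte in meiotic arrest, was read at 9.67, 7.90 and 8.19 with scramble and at 9.38, 7.98 and 7.89 with the mimic. Both replicate 1 arrays were far above the other 4, in either group, and the groups overlapped. Its log2 difference was -0.17 (SE 0.55, 95% interval -1.44 to 1.09) and -0.11 without both replicate 1 arrays. Single arrays turned its sign, from -0.66 without mimic replicate 1 to 0.37 without scramble replicate 1, and it was also above 0 without mimic replicate 2 (0.048) or mimic replicate 3 (0.092). It was -0.51 without scramble replicate 2 and -0.37 without scramble replicate 3.

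**Figure D3:**
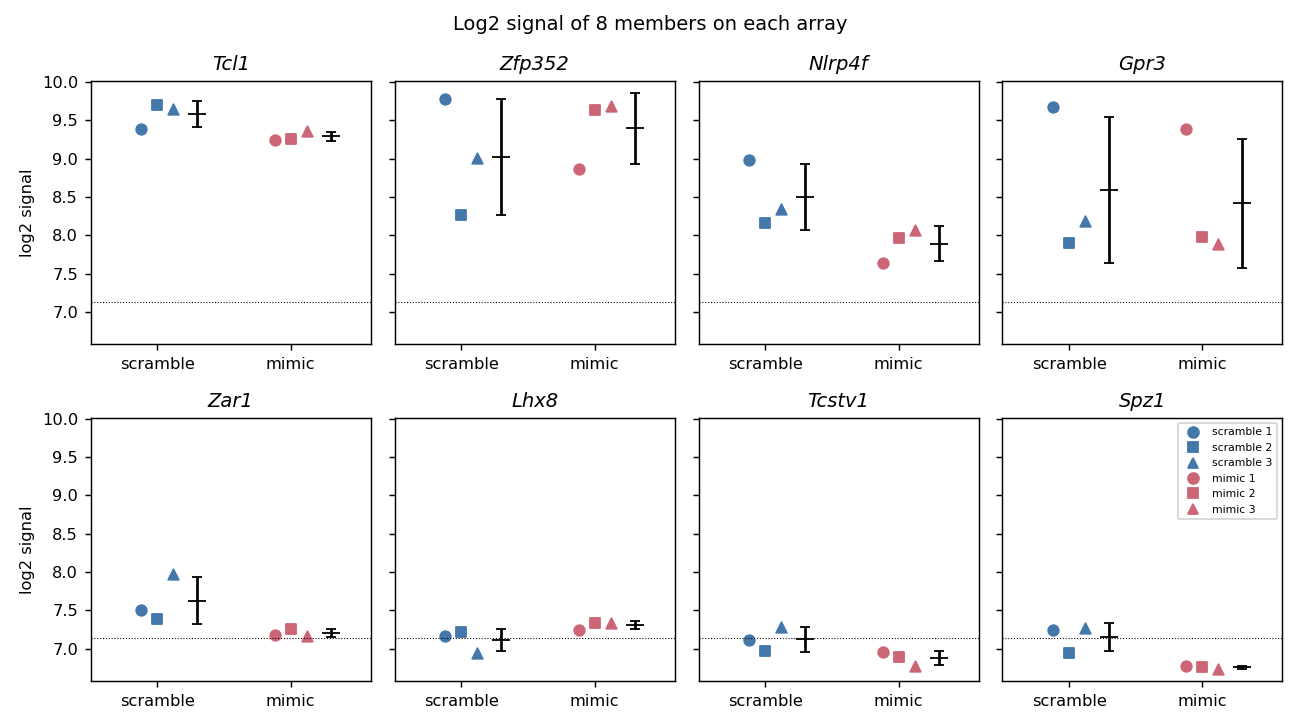
Log2 signal of 8 members on each array, with the mean ± SD (n = 3) of each group beside the points and the mean 25th percentile of the arrays as a dotted line. Mimic points lie below all scramble points for Tcl1, Nlrp4f, Zar1, Tcstv1 and Spz1 and above them for Lhx8, while Zfp352 and Gpr3 overlap.

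The egg coat genes were dim on every array. Zp1, Zp2 and Zp3, which encode the glycoproteins of the zona pellucida, had log2 signals between 6.72 and 7.89. Zp2 had 6.98, 7.77 and 7.33 with scramble and 6.78, 7.89 and 7.59 with the mimic, with both replicate 1 arrays lowest. Their differences between groups were -0.12 to 0.07, and all of them changed sign when single arrays were left out. Zp1 was too dim to be tested. The genes of the secreted factors Gdf9 and Bmp15, which act on cumulus cells, and of the oocyte-secreted protein Oosp1 (brighter feature) lay between 6.87 and 7.97. The dimmer feature of Oosp1 went from 6.74 to 7.31. The difference of means was -0.08 on the brighter and 0.16 on the dimmer Oosp1 feature. Gdf9 was highest in scramble replicate 3 (7.97) and lowest in mimic replicate 1 (6.92), and its log2 difference was -0.24 (SE 0.34). Leaving out single arrays moved this to -0.54 (scramble replicate 1), -0.15 (scramble replicate 2), -0.043 (scramble replicate 3), -0.038 (mimic replicate 1) and -0.48 (mimic replicate 2).

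The oocyte transcription factors were dim as well. Nobox and Figla, which switch on the oocyte programme, and Lhx8, a LIM homeobox gene of early folliculogenesis, lay between 6.69 and 8.06. Lhx8 had 7.17, 7.22 and 6.95 with scramble and 7.24, 7.34 and 7.34 with the mimic, and it was the single member whose mimic values all lay above the scramble values. Its log2 difference was 0.20 (SE 0.17), or 0.11 without scramble replicate 3, and it did not pass in limma (adjusted p = 0.972). Figla was read at 8.06 in scramble replicate 1 and at 6.85 to 7.11 on the other 5 arrays.

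Nlrp5 and Ooep, subunits of the subcortical maternal complex that is needed for the first divisions, and Padi6, an enzyme-family protein of the cytoplasmic lattices, were also dim. Nlrp5 had 6.74, 7.09 and 7.22 with scramble and 7.87, 7.18 and 7.42 with the mimic, where mimic replicate 1 was highest and scramble replicate 1 lowest. Its log2 difference of 0.47 (SE 0.24, 95% interval -0.07 to 1.01) did not pass (limma adjusted p = 0.972), and fewer arrays gave 0.28 (mimic replicate 1 left out) or 0.14 (both replicate 1 arrays left out). Ooep went from 6.74 to 7.64 and had too low a mean to be tested, Padi6 went from 7.31 to 7.92, and the NLR gene Nlrp14 from 7.02 to 7.77.

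Among genes of meiosis and maternal RNA handling, Zar1, an RNA-binding protein of the oocyte, had 7.51, 7.39 and 7.97 with scramble and 7.18, 7.26 and 7.17 with the mimic. The groups did not overlap, and the mimic arrays stood at the 25th percentile level. The log2 difference was -0.42 (SE 0.23, 95% interval -0.95 to 0.11), it did not pass (limma adjusted p = 0.972), and it was -0.25 without scramble replicate 3. Mos, the kinase that holds the egg in metaphase, had 8.24, 6.98 and 7.44 with scramble and 8.29, 7.16 and 7.46 with the mimic, high on both replicate 1 arrays. Btg4, an adaptor of the deadenylase that clears maternal messengers, stayed at 6.59 to 7.41 and was not tested.

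Npm2, the egg's nucleoplasmin that remodels sperm chromatin, went from 7.22 to 8.18, with scramble replicate 1 highest. Kpna7, an importin alpha of the oocyte and early embryo, had 8.95, 7.21 and 6.87 with scramble and 8.00, 7.29 and 7.26 with the mimic on its brighter feature, again high on the replicate 1 arrays. Its second feature went from 7.16 to 7.82 and did not show this. Oas1d, an oocyte member of the oligoadenylate synthetase family, and Rfpl4, an oocyte RING finger gene, stayed between 6.78 and 7.57.

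The genes of the 2-cell burst other than Zfp352 lay at the dim end. The 3 features of Zscan4c and the single feature of Zscan4f, zinc finger genes that act at telomeres in the 2-cell embryo and in rare stem cells, lay between 6.58 and 7.58. These genes have closely similar copies, as do the Tcstv, Tdpoz and Obox genes, so a feature may read several of them and its assignment is uncertain. Tcstv1 and Tcstv3 were at 6.69 to 7.29, and Tcstv1 had 7.12, 6.97 and 7.29 with scramble and 6.96, 6.90 and 6.78 with the mimic. Its groups did not overlap, but no value lay more than 0.15 log2 units above the 25th percentile of its array, and the gene was not tested. Tdpoz1, Tdpoz3 and Tdpoz4, which encode proteins with TRAF and POZ domains, stayed between 6.76 and 7.41 on all 5 features.

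The Obox genes encode homeodomain proteins of the oocyte and early embryo. Obox5 was read at 8.74 in scramble replicate 1 and at 7.04 to 7.29 on the other 5 arrays. Its log2 difference of -0.43 (SE 0.43) was 0.12 without that array, -0.73 without scramble replicate 2 and -0.67 without scramble replicate 3. Obox6 went from 6.86 to 7.64, and the brightest feature of Obox3 had both replicate 1 arrays (8.00 and 7.64) above the rest, which reached 7.42 at most. Spz1, a helix-loop-helix gene known from spermatogenesis, had 7.24, 6.95 and 7.27 with scramble and 6.78, 6.76 and 6.74 with the mimic. The mimic values were all lower (difference of means -0.39), yet they lay below the 25th percentile of their arrays and the gene was not tested.

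The comparison of mimic with scramble asks whether an embryo supplied with miR-30d keeps more or less of these transcripts. In limma 0 of the 23 tested members passed an adjusted p of 0.05, as did 0 (0%) of the 17399 genes tested. At an unadjusted p under 0.05 the counts were 0 of 23 and 552 of 17399 (3.17%). Of the 23 members 10 were higher and 13 lower with the mimic, with a median log2 difference of -0.05, while the median over all genes tested was 0.02 and 46.8% of them were lower. The standard errors of the members were 0.16 to 0.55. Their 95% intervals reached from -1.44 at the lowest (Gpr3) to 1.27 at the highest (Zfp352), so that a change of about 2-fold in several of them could not be told from none with these arrays.

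On the mean, 22 of the 35 genes with a feature were lower with the mimic, as were 48.1% of all 22485 genes. Of the 35, 5 had all mimic values below all scramble values (Tcl1, Nlrp4f, Zar1, Tcstv1 and Spz1) and 1 had them above (Lhx8). Over all 22485 genes the groups did not overlap in 9.53%, with the mimic lower in 4.24% and higher in 5.29%. Among the 23 tested members 3 were lower and 1 higher without overlap, against 4.12% and 5.58% of the genes tested (9.7% in either direction). Each of these 6 genes gave p = 0.1 by exact permutation (two-sided), the smallest that 3 arrays against 3 allow. With the replicate number as a block, limma called 0 of the 23 members and 1 gene of 17399 (0.00575%), which was Ctsll3, and the unadjusted counts were 0 of 23 and 1260 of 17399 (7.24%). Without both replicate 1 arrays the median difference of the members turned to 0.073, with 13 higher and 10 lower. On those 4 arrays 2 members, Tcl1 and Zfp352, had an unadjusted limma p under 0.05, as did 5.75% of all genes tested. After adjustment 0 genes passed, and the adjusted limma p was 0.852 for Tcl1.

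**Figure D4:**
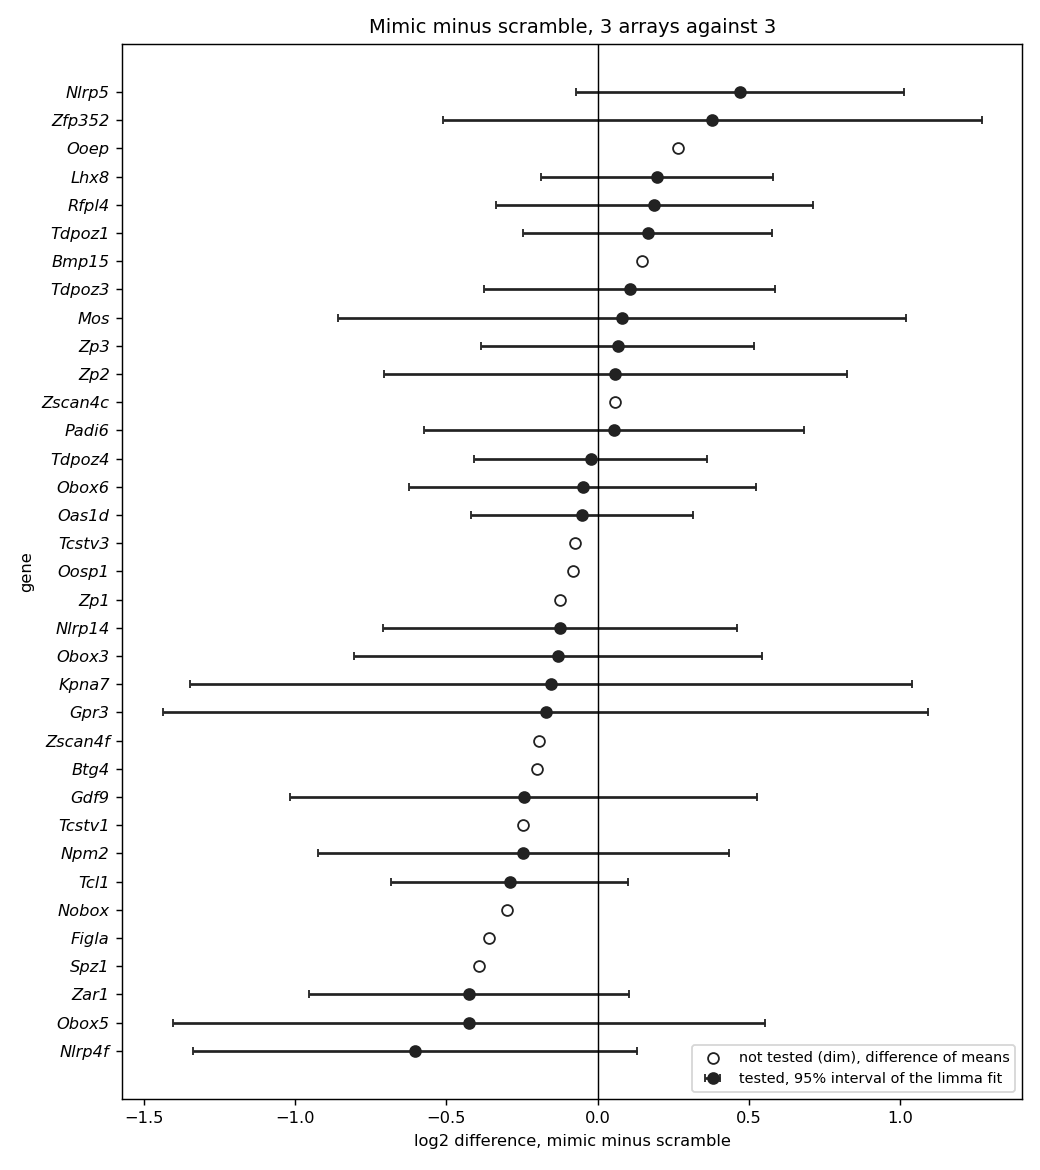
Log2 difference, mimic minus scramble, of the 35 members. Filled points are the 23 tested genes with the 95% interval of the limma fit, and open points are the 12 genes too dim to be tested, shown as differences of means. Every interval includes 0, and the widest belong to Gpr3 and Kpna7.

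The replicate 1 arrays stood apart for several members, but no more often than over all genes. Both read above all 4 other arrays for Gpr3, Mos, Kpna7 and Obox3, and below them for Zp2, Gdf9, Tdpoz1 and Obox6. That makes 4 of 35 (11.4%) in each direction, against 13.1% above and 19.5% below over all 22485 genes. The dimmer features of Kpna7, Obox3 and Tdpoz1 did not set both replicate 1 arrays apart. The mean of the replicate 1 arrays exceeded that of the others by 1.54 log2 units for Gpr3, 1.31 for Kpna7 (brighter feature) and 1.01 for Mos. Other members were raised on scramble replicate 1 alone, by 1.64 for Obox5 and 1.09 for Figla over the mean of scramble replicates 2 and 3. Dazl, an RNA-binding gene of germ cells outside the set and chosen here after its values were seen, had 9.43 and 10.56 on the replicate 1 arrays and at most 7.18 on the other 4. Whether these values reflect the embryos or the RNA of replicate 1 was not tested.

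**Figure D5:**
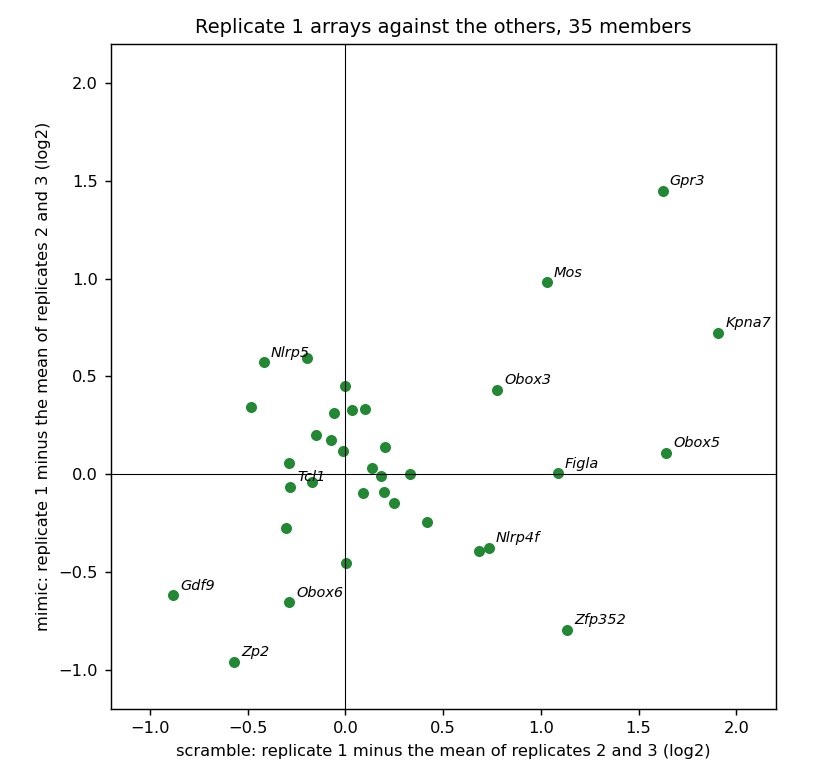
Replicate 1 minus the mean of replicates 2 and 3, in log2 units, in the scramble group (horizontal axis) and the mimic group (vertical axis), 1 point for each of the 35 members. Gpr3, Mos and Kpna7 lie at the upper right, Zp2 and Gdf9 at the lower left, and Zfp352 has opposite signs in the groups.

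Further oocyte genes, taken as a list of 34 of which 33 had a feature, were mostly dim too, with 29 (87.9%) near the 25th percentile. In that list 1 gene (3.03%) was well above the dim end, Khdc3, another subunit of the subcortical maternal complex that is also transcribed in embryonic stem cells. It had 13.61, 13.68 and 13.46 with scramble and 13.17, 12.57 and 12.98 with the mimic, so the mimic arrays were all lower. Its log2 difference was -0.68 (SE 0.18) and did not pass (limma adjusted p = 0.972). Tle6, a further subunit of that complex, and Dppa3, a maternal factor that is made again in pluripotent cells, lay over 1 log2 unit above the dim end on the mean, with differences of -0.35 (SE 0.19) and -0.64 (SE 0.31) and no overlap between groups. Both are named because few genes of the list were bright, after their values were seen. Oosp2 and Tcl1b4, by contrast, had differences of 0.37 (SE 0.16) and 1.44 (SE 0.62), the latter with mimic replicate 1 at 9.97 and the other 5 arrays at 6.59 to 7.65. For Tcl1b4 the difference was 0.63 without that array and 0.48 without both replicate 1 arrays. It was 0.72 on the mean of those of its features that were not among the dimmest 25%. Of the 21 tested genes of the list 12 were higher and 9 lower, 0 passed, and the median difference was 0.07.

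Of 24 further cleavage-stage genes 18 had a feature and 5 (27.8%) were well above the dim end. Dppa2, a chromatin factor of pluripotent cells that takes part in switching on 2-cell genes, had 10.12, 9.76 and 9.84 with scramble and 9.16, 9.25 and 9.59 with the mimic on its brighter feature, and the log2 difference was -0.57 (SE 0.19). On the mean of its 2 features this was -0.23, and without both replicate 1 arrays it was -0.38. The PRAME-like genes Pramel7 and Pramel6 had log2 differences of -0.69 (SE 0.13) and -0.38 (SE 0.22). That of Pramel7 was -0.76 (without scramble replicate 2) to -0.60 (without scramble replicate 1) when arrays were omitted singly. Without both replicate 1 arrays it was -0.55. That of Pramel6 was -0.19 without scramble replicate 1, -0.60 without scramble replicate 3 and, with both replicate 1 arrays left out, -0.20. The other genes of this list well above the dim end were Sp110 and Eif1a, with differences of 0.01 (SE 0.22) and 0.13 (SE 0.15), both named after their values were seen. Of Dppa2, Pramel7 and Pramel6, 0 passed in limma (adjusted p = 0.972 for each). Of the 11 tested genes of the list 5 were higher and 6 lower, and the median difference was -0.10.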

How the data were processed

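Gene expression was read from 6 arrays of whole blastocysts, 3 per group, with group and replicate read off the sample titles. The values used are the deposited log2 signals of 45220 features. The steps by which the authors extracted, background-corrected or normalized these values were not given in the sources used here; the log2 scale was read from the values. The array medians (7.37 to 7.38) nearly coincide, so a change shared by most genes cannot be seen, and a dim feature has no known detection limit. Of the features 33026 had 1 gene symbol, 0 several and 12194 none, by the platform annotation; symbols were updated by gene identifier through RefSeq (GRCm38.p6), which matched 98.2%. The array's build is not given, so array features have no coordinates here.

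The dimmest 25% of named features (lowest mean of the 6 arrays) were dropped, and the feature with the highest mean stood for a gene. Mimic and scramble were compared by limma 3.58.1 under R 4.3.3 (eBayes with a trend, two-sided, Benjamini-Hochberg over all genes tested, threshold 0.05), after the code was tested on simulated data. The genes and lists were chosen with earlier results of these data known. The named genes are all members, the 3 genes of smallest unadjusted p in each further list, and fixed cell type markers. Tle6, Dppa3, Dazl, Sp110, Eif1a, Sox2, Foxl2 and Krt7 fall outside this rule and were named after their values were seen. Figures were drawn with matplotlib 3.10.9.

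After each group mean was subtracted, arrays with the same number correlated at 0.328, 0.349 and 0.204 (replicates 1, 2 and 3). All were over 0.1, the minimum set for a possible pairing. The replicate number was used as a block only in an alternative fit. The labels do not state a pairing. Scramble replicate 2 also correlated at 0.185 with mimic replicate 3, and scramble replicate 3 at 0.124 with mimic replicate 2. Replicates 2 and 3 are thus not clearly paired by number. Results come from the model without the block unless stated, so their standard errors take no account of a pairing. Precision is limited by how few arrays there are, and over all genes the standard error had a median of 0.249. Alternatives were other filters, no trend, the block, quantile normalization, median centring, the mean of all features, and arrays left out.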

Additional observations from a re-analysis of the deposited data

How the results depend on the processing

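No member and none of the further genes passed an adjusted p of 0.05 in limma under any alternative run. Over all genes the replicate block gave 1 call and changed no call of a member, and the other alternatives gave 0. Of 391 values of 29 named genes under the alternatives, 361 had the sign of the reported value and 30 the opposite sign. The 8 tested members that kept their sign throughout were Gdf9, Nlrp5, Zar1, Nlrp4f, Tcl1, Lhx8, Zfp352 and Tdpoz1. The dimmer feature of Tdpoz1, which entered none of these fits, had the opposite sign (-0.073 against 0.17). The median difference of the members was -0.17 with the lowest 50% of features left out (9 members tested), 0.073 without both replicate 1 arrays, and -0.092 (without scramble replicate 2) to 0.038 (without scramble replicate 1) when arrays were omitted singly. The number of members well above the dim end was 2 when 1 log2 unit sufficed (Tcl1 and Zfp352), 0 when 3 were asked, and 2 on the mean over arrays. It was 1 with any array left out. Unadjusted counts over all genes were 552 in the fit reported, 759 with no filter and 362 to 919 when arrays were omitted singly. The level below which a feature can no longer be read is not known here, which limits what the values of dim members can show.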
